A study of Homo sapiens with 12 samples.

Results

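The enzymes of purine and pyrimidine nucleotide synthesis comprised 31 genes, chosen as a list of names with earlier results of these data known and with no threshold on their values, of 58735 genes in the count table. All 31 were among the 16646 genes that passed the filter on low counts. They were followed in polyA RNA-seq of C4.2B, a human line of castration-resistant prostate cancer that descends from LNCaP, in 4 arms of 3 libraries (A, B and C). Cells received DMSO alone, ipatasertib, which inhibits AKT, at 0.25 μM (labelled IPATA, here AKTi), tazemetostat, which inhibits EZH2, at 1 μM (labelled TAZ, here EZH2i) and the agents together at those doses (labelled COMBO, here the combination). Cells of the EZH2i and combination arms had already received tazemetostat for 6 days, all arms were then in 10% charcoal-stripped FBS, and RNA was taken 24 hours after that switch. All libraries came from parallel plates of 1 cell line, so p-values measure only the spread between these samples, which may be technical.

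Purine rings are built stepwise on PRPP, an activated ribose phosphate, to give IMP, from which GMP and AMP are made. The pyrimidine ring is built before it is joined to PRPP, and the product UMP is the source of UTP, CTP and, after reduction by ribonucleotide reductase and methylation by thymidylate synthase, dTTP. Salvage enzymes bypass these routes by returning free bases and nucleosides to nucleotides. Proliferating cells draw on both routes, and several enzymes of the deoxynucleotide branch are known to be transcribed mainly around S phase. The genes were therefore read as PRPP supply (PRPS1, PRPS2), de novo synthesis (12 genes), pyrimidine conversion (CMPK1, CTPS1, CTPS2, NME1), deoxynucleotide synthesis (6 genes) and salvage (7 genes), with PRPP supply and pyrimidine conversion counted as 6 genes shared by the routes.

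Total counts were 14133755 to 22276417 per library, and libraries of an arm differed by more than sampling noise (pairwise chi-square per gene of 2.63 to 8.13). All 10 prostate luminal markers were expressed, with a summed level of 4365 to 4529 CPM (counts scaled to a common TMM-adjusted library total, the unit of all levels below) in DMSO and 9873 to 10050 CPM in the combination. Basal, leukocyte, fibroblast and endothelial lists summed to at most 19.6 CPM in any library. A list of 30 S-phase genes, which shares no member with the enzymes, summed to 3527 to 3678 CPM with DMSO, 2099 to 2134 with AKTi, 1328 to 1386 with EZH2i and 543 to 565 with both agents. How far the share of cells in S phase takes part in the values below was not tested, and in bulk RNA fewer cells expressing a gene and less RNA per cell cannot be told apart.

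Most members were lower in each treated arm, with the largest median change in the combination. Against DMSO, AKTi lowered 21 of the 31 genes and raised 1 (edgeR adjusted p under 0.05), where 21.9% of all genes tested were lower and 20.6% higher. EZH2i lowered 28 and raised 0 against backgrounds of 31.5% and 32.6%, and CTPS2, UCK1 and TK2 did not pass the test. At an unadjusted p under 0.05 the number higher there was also 0, as it was with DESeq2. In the combination 30 were lower and 1, TK2, was higher, against 35.2% and 38.0%. The median log2 fold change of the 31 genes was -0.40 with AKTi, -0.99 with EZH2i and -1.39 with both agents, and that of all genes tested was 0.01, 0.03 and 0.06. Scaled by library size alone, the median of all genes in the combination was 0.26 and CMPK1, CTPS2 and UCK1 were no longer called lower there, which left 27.

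**Figure D1:**
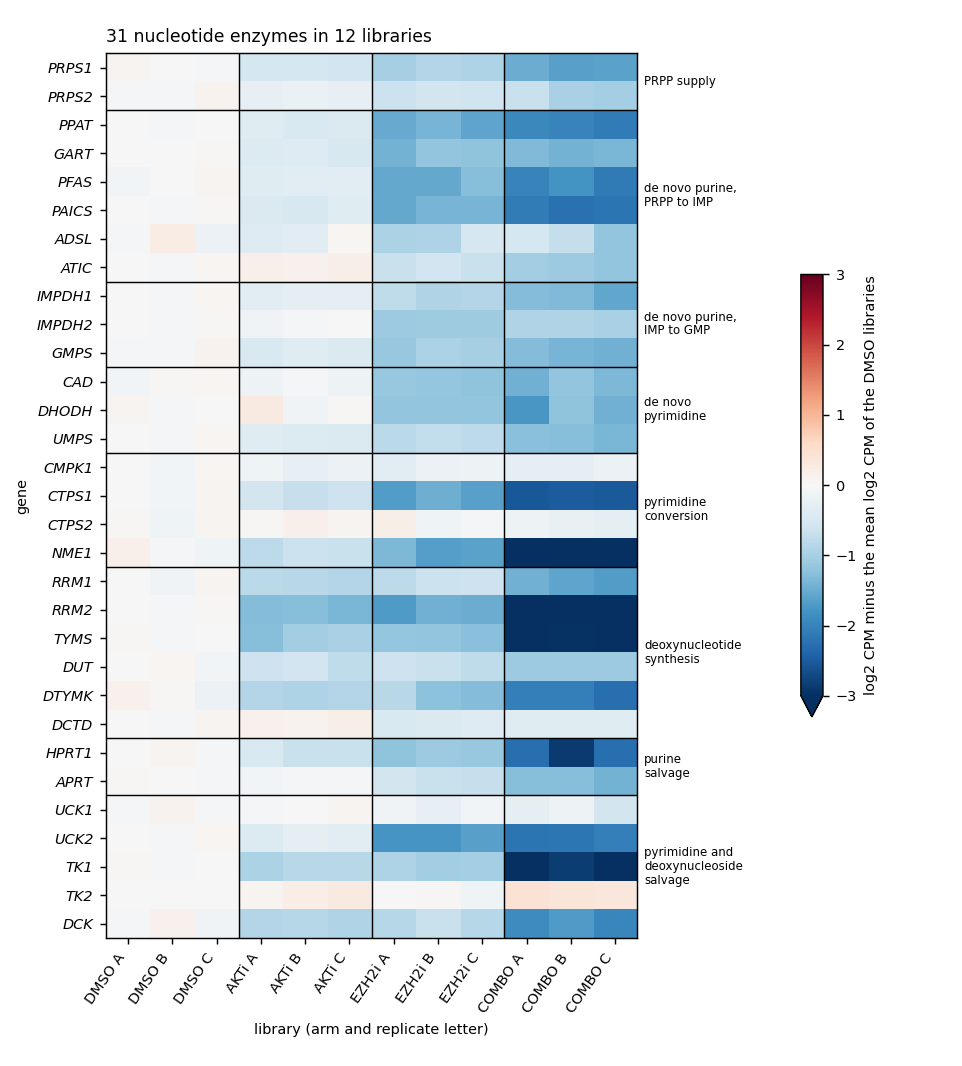
Rows are the 31 enzymes grouped by role and columns are the 12 libraries; color is log2 CPM minus the mean log2 CPM of the 3 DMSO libraries. Libraries of an arm resemble each other, and the darkest rows are RRM2, TYMS, NME1 and TK1 in the combination, near or beyond the end of the scale at -3. HPRT1 in COMBO B (-2.87) is about as dark as TK1 there (-2.86). TK2 is the row above 0 in all 3 combination libraries.

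The deepest loss was in deoxynucleotide synthesis, at RRM2. In the combination the median log2 fold change of the branch (-1.84) was near that of salvage (-1.86), and TYMS (-3.11) was near NME1 (-3.099). RRM2 (chr2:10120698-10131419 of hg38, plus strand), the regulated small subunit of ribonucleotide reductase, was at 180.1, 172 and 182 CPM with DMSO, 71.7, 73.8 and 68.5 with AKTi, 54.8, 65.3 and 63.6 with EZH2i and 4.97, 5.36 and 5.26 with both agents. The groups did not overlap, and the combination was 13.7-fold below AKTi and 11.8-fold below EZH2i. Its log2 fold change in the combination was -5.099 ± 0.09 (SE; 34.3-fold lower, edgeR adjusted p = 8.25e-34), against -1.32 in AKTi and -1.54 in EZH2i. The large subunit RRM1, which forms the enzyme with RRM2, was at 278, 254 and 293 CPM with DMSO, 156, 153 and 149.9 with AKTi, 161, 177 and 179 with EZH2i and 100.5, 92.2 and 86.5 with both agents. Its log2 fold change in the combination was -1.56 ± 0.06, a 2.96-fold reduction, so the subunits fell by very different amounts. RRM1 was also the only member called higher in EZH2i than in AKTi (log2 difference 0.17 ± 0.06, edgeR adjusted p = 0.0203), a call lost without AKTi A, AKTi B, AKTi C, EZH2i B or EZH2i C (0.11 to 0.16).

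TYMS (chr18:657604-673578, plus strand), the thymidylate synthase that converts dUMP to dTMP, was at 60.6, 57.5 and 58.3 CPM with DMSO, 24.1, 28.3 and 30.03 with AKTi, 26.1, 26.01 and 24.7 with EZH2i and 6.69, 7.44 and 6.34 with both agents. Every treated library was below every DMSO library, and the combination libraries were below those of each agent. The TYMS change in the combination was -3.11 ± 0.10 on the log2 scale, 8.61-fold lower. TYMS overlaps ENOSF1 and TYMSOS on the opposite strand, and because the strand setting of the counting is not given, reads of these genes cannot be told apart with certainty. DTYMK, which phosphorylates dTMP, fell 4.34-fold in the combination, from 91.3 to 112 to 21.3 to 24.8 CPM. DUT, which removes dUTP, fell 2.13-fold, from 82.1 to 90.7 to 40.4 to 40.6 CPM. The smallest change of the branch was in DCTD, which deaminates dCMP to dUMP, at 85.6 to 95.04 CPM with DMSO, 96.3 to 101 with AKTi, 65.8 to 68.7 with EZH2i and 69.3 to 69.8 with both agents. It fell in EZH2i (-0.43 ± 0.06) and in the combination (-0.37 ± 0.06) and did not pass the test in AKTi (0.13 ± 0.06, edgeR adjusted p = 0.0726). All 6 genes of the branch were lower in the combination and in EZH2i, and 5 of 6 in AKTi. Of all genes tested, 35.2%, 31.5% and 21.9% were lower in these arms.

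**Figure D2:**
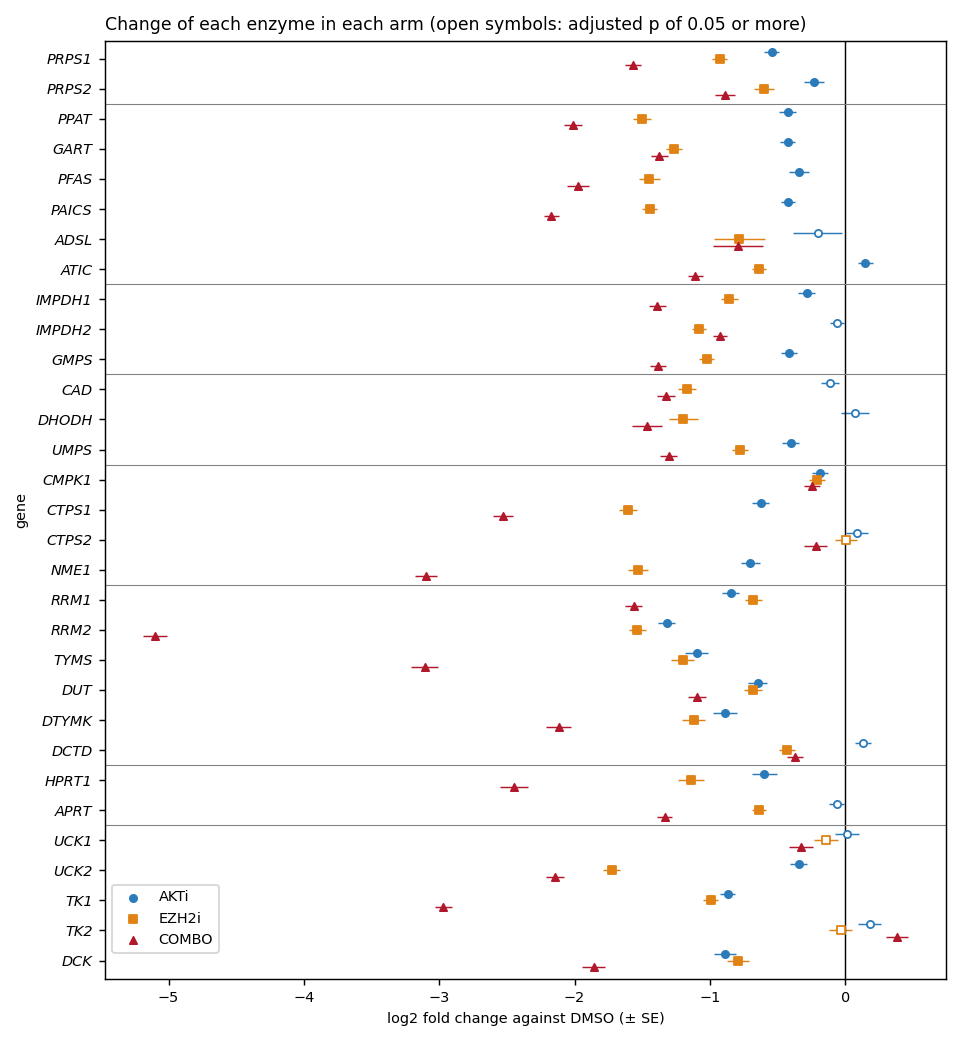
Each row is an enzyme and the horizontal axis is the log2 fold change against DMSO; circles, squares and triangles stand for AKTi, EZH2i and the combination, bars for SE and open symbols for an edgeR adjusted p of 0.05 or more. RRM2 lies farthest to the left at -5.10 in the combination, and TK2 is the triangle to the right of 0.

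De novo purine synthesis up to IMP fell in EZH2i and in the combination at all 6 genes. Of all genes tested, 31.5% and 35.2% were lower in these arms. PPAT, the amidotransferase of the committed step, and PAICS, which carries a pair of later steps, lie head to head on chromosome 4 (chr4:56393362-56435615, minus strand, and chr4:56435741-56464579, plus strand). PAICS was at 580.3, 577 and 608 CPM with DMSO, 433, 425 and 459 with AKTi, 202, 222 and 225 with EZH2i and 138, 124 and 129.7 with both agents. It fell in a staircase without overlap between arms, to 4.503-fold lower in the combination (log2 -2.17 ± 0.06, edgeR adjusted p = 3.25e-28), the largest change of the de novo route. PPAT followed the same order, at 123, 119 and 123 CPM with DMSO, 93.7, 87.99 and 90.1 with AKTi, 42.4, 45.9 and 40.5 with EZH2i and 31.8, 30.1 and 28.4 with both agents. Its log2 fold changes were -0.42 ± 0.06 with AKTi, -1.503 ± 0.07 with EZH2i and -2.01 ± 0.07 with both agents, beside -0.42, -1.44 and -2.17 for PAICS. The starts of the pair are separated by 125 bases, printed here because both genes fell together and share this stretch (GRCh38.p14, chr4:56435616-56435740, plus strand, RefSeq genome, 76% G or C).

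PPAT-PAICS: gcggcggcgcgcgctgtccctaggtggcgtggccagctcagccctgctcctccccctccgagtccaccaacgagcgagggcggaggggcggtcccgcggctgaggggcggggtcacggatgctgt

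PFAS, which adds the amide nitrogen of the growing ring, was at 93.8 to 105 CPM in DMSO and 22.6 to 28.5 in the combination, 3.93-fold lower, and it overlaps CTC1 on the opposite strand, which held 48.9% as many counts. GART, which carries several steps of ring assembly, was at 205, 204 and 214 CPM with DMSO, 156, 158 and 149 with AKTi, 77.4, 91.5 and 90.04 with EZH2i and 82.8, 77.5 and 80.3 with both agents. The EZH2i and combination libraries of GART overlapped, and adding AKTi to EZH2i did not give a called difference. GART overlaps SON, a more abundant gene on the opposite strand, so its reads are uncertain in the same way as those of TYMS. ATIC, which carries out the final steps to IMP, was at 321, 316 and 339 CPM with DMSO, 359, 358 and 365 with AKTi, 204, 218 and 206 with EZH2i and 157, 153 and 142 with both agents. It was the only member called higher in AKTi (0.15 ± 0.05, 1.11-fold, edgeR adjusted p = 0.0207), and it fell in EZH2i (-0.64 ± 0.05) and in the combination (-1.11 ± 0.05). The rise was not called without DMSO A, DMSO B, AKTi B or AKTi C, where the log2 value was 0.10 to 0.14, or with a looser filter of 1 count or more over all libraries (0.14). ADSL, which serves both IMP and AMP synthesis, had only 57 to 148 counts per library and overlaps SGSM3 on the same strand, so its level is uncertain. It was 8.04 ± 1.13 CPM (SD, n = 3) in DMSO and 4.58 ± 1.06 in the combination (-0.79 ± 0.19).

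The branch from IMP to GMP held the most abundant member per gene length. IMPDH2, the major isozyme of the rate-limiting dehydrogenase, had a mean of 192 RPKM (CPM per kilobase of the gene length in the count table) in DMSO, above the other 30 members. In CPM it was at 537, 514 and 551 CPM with DMSO, 492, 515 and 530.4 with AKTi, 250.1, 253 and 254 with EZH2i and 285, 285 and 274 with both agents. AKTi overlapped DMSO and was not called (-0.06 ± 0.05, edgeR adjusted p = 0.374), whereas EZH2i lowered it 2.12-fold and the combination 1.896-fold. The combination was above EZH2i in every library (log2 difference 0.16 ± 0.05, edgeR adjusted p = 0.0107), a call lost without EZH2i A (0.12) and with the looser filter (0.13). IMPDH1, the other isozyme, was at 164, 157 and 171 CPM with DMSO, 131, 137 and 136 with AKTi, 96.6, 86.97 and 88.6 with EZH2i and 66.6, 65.7 and 55.6 with both agents and did not overlap between any arms. It fell 2.62-fold in the combination (-1.39 ± 0.06). GMPS, which makes GMP from XMP, fell from 279 to 311 to 107 to 117 CPM (-1.38 ± 0.06).

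De novo pyrimidine synthesis responded mainly in the arms that held tazemetostat. CAD, the multifunctional protein that opens the route, was at 104 to 115 CPM with DMSO, 99.8 to 109 with AKTi, 48.2 to 50.4 with EZH2i and 40.6 to 48.9 with both agents. DHODH, the mitochondrial dehydrogenase that feeds electrons to the respiratory chain, was at 36.1, 33.04 and 33.9 CPM with DMSO, 41.4, 31.8 and 35.3 with AKTi, 14.9, 14.96 and 15.02 with EZH2i and 10.2, 14.7 and 12.6 with both agents. Neither gene passed the test in AKTi (-0.11 ± 0.07 and 0.07 ± 0.10), both fell in EZH2i (-1.17 ± 0.07 and -1.197 ± 0.11) and both fell in the combination (-1.32 ± 0.07 and -1.46 ± 0.11). UMPS, which completes UMP, fell in all 3 arms, with log2 fold changes of -0.403 ± 0.06, -0.78 ± 0.06 and -1.31 ± 0.06. Its levels were 112 to 121 CPM in DMSO and 44.6 to 48.4 in the combination.

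At the head of the routes, PRPS1, the more abundant PRPP synthetase, was at 229.9, 215 and 207 CPM with DMSO, 151, 149.6 and 147 with AKTi, 109, 118 and 115 with EZH2i and 77.6, 70.1 and 71.5 with both agents. PRPS2 was at 81.05, 79.2 and 88.6 CPM with DMSO, 70.4, 71.9 and 70.4 with AKTi, 53.4, 56.3 and 54.7 with EZH2i and 51.8, 42.03 and 40.6 with both agents. Both fell in every arm, PRPS1 by 2.97-fold and PRPS2 by 1.85-fold in the combination. The AKTi call of PRPS2 (-0.23 ± 0.07, edgeR adjusted p = 0.00998) was lost without DMSO C (-0.18) and when scaled by library size or upper quartile (-0.17 with each).

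Among the enzymes that turn UMP into UTP and CTP, changes ranged from slight to severe. NME1 (chr17:51153536-51162428, plus strand), a nucleoside diphosphate kinase, was at 168, 149.8 and 140.3 CPM with DMSO, 88.03, 98.1 and 95.4 with AKTi, 60.0, 48.7 and 50.03 with EZH2i and 18.6, 18.6 and 16.2 with both agents. It was 8.57-fold lower in the combination (-3.099 ± 0.08, edgeR adjusted p = 6.46e-28), with no overlap between any of the arms. The read-through gene NME1-NME2 shares its exons but held few counts, so little of the signal was assigned there. CMPK1, which phosphorylates UMP and CMP, was at 200.04 to 223 CPM in DMSO and 174 to 188 in the combination, with log2 fold changes of -0.19 ± 0.06, -0.21 ± 0.06 and -0.25 ± 0.06 in AKTi, EZH2i and the combination. All 3 CMPK1 calls were lost when libraries were scaled by library size alone or by upper quartile.

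The genes for CTP synthetase differed in response. CTPS1 (chr1:40979335-41012565, plus strand) was at 132, 125 and 141 CPM with DMSO, 90.7, 81.5 and 86.4 with AKTi, 41.1, 47.6 and 42.5 with EZH2i and 22.6, 23.5 and 23.2 with both agents. CTPS2 was at 40.4, 36.3 and 41.8 CPM with DMSO, 40.6, 43.9 and 41.7 with AKTi, 44.5, 36.2 and 38.7 with EZH2i and 35.2, 33.8 and 32.9 with both agents. CTPS1 fell 5.76-fold in the combination (-2.53 ± 0.07), while CTPS2 changed by -0.22 ± 0.08 (edgeR adjusted p = 0.0165). That small CTPS2 call was lost with library-size and upper-quartile scaling (-0.02 and -0.03), with a filter of at least 10 counts in every library (-0.15), and without DMSO C (-0.18) or COMBO C (-0.20). Per gene length CTPS1 was the higher of the pair in DMSO (11.5 against 7.17 RPKM) and the lower in the combination (2.003 against 6.17 RPKM). The log2 ratio of CTPS1 to CTPS2 per length was 0.69 ± 0.04 (SD, n = 3) with DMSO, -0.03 ± 0.13 with AKTi, -0.92 ± 0.26 with EZH2i and -1.62 ± 0.07 with both agents.

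The same ratio was taken for 5 pairs of genes in the 3 arms, 15 comparisons with DMSO. Each gave a two-sided exact permutation p = 0.1, adjusted 0.1, the smallest that 3 libraries against 3 allow, so none could pass 0.05. Uridine-cytidine kinase moved as CTP synthetase did, with a UCK2 to UCK1 log2 ratio per length of 0.63 ± 0.15 with DMSO, 0.28 ± 0.07 with AKTi, -0.95 ± 0.09 with EZH2i and -1.17 ± 0.27 with both agents. The PRPS1 to PRPS2 log2 ratio went from 1.46 ± 0.15 in DMSO to 0.78 ± 0.12 in the combination. For IMPDH1 to IMPDH2 the direction differed between the single-agent arms, with -2.10 ± 0.01 with DMSO, -2.33 ± 0.03 with AKTi, -1.88 ± 0.09 with EZH2i and -2.57 ± 0.11 with both agents.

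**Figure D3:**
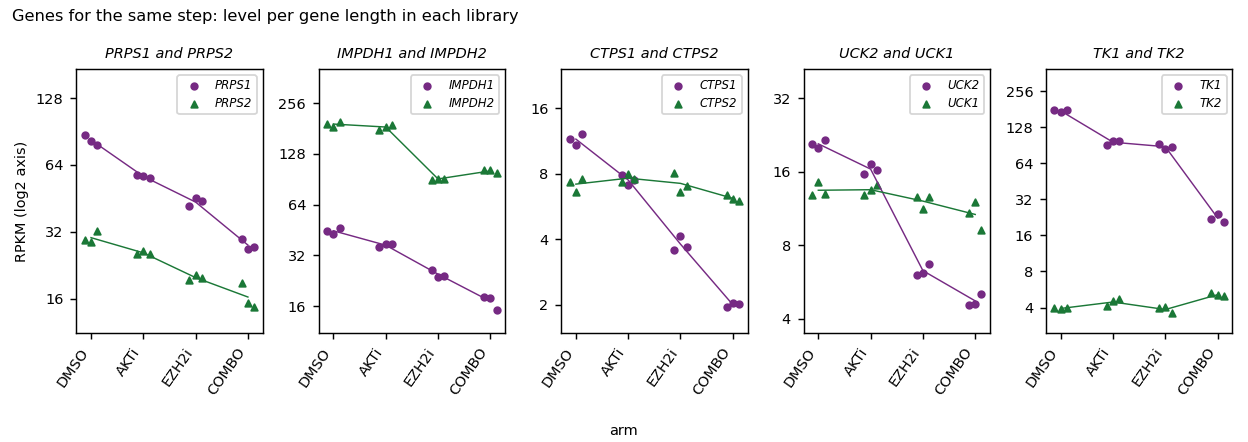
Level per gene length (RPKM, log2 axis) of 5 pairs of genes that act at the same step, in the 3 libraries of each arm, with lines joining arm means. CTPS1 crosses below CTPS2 and UCK2 crosses below UCK1 between DMSO and the combination, while TK1 approaches TK2 without crossing it.

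In salvage, 6 of 7 genes fell in the combination (35.2% of all genes tested were lower), and the exception was the mitochondrial kinase. TK1 (chr17:78174075-78187233, minus strand), the cytosolic thymidine kinase known for its S-phase expression, was at 332, 317 and 329.6 CPM with DMSO, 169.6, 182 and 184 with AKTi, 172, 158 and 162 with EZH2i and 41.2, 44.9 and 38.8 with both agents. AKTi and EZH2i overlapped each other, and the combination was 7.83-fold below DMSO (-2.97 ± 0.06, edgeR adjusted p = 4.85e-31). TK2 (chr16:66508003-66552544, minus strand), the mitochondrial thymidine kinase, was at 28.3, 27.95 and 28.2 CPM with DMSO, 29.6, 32.3 and 33.8 with AKTi, 28.2, 28.8 and 25.8 with EZH2i and 38.1, 36.4 and 35.6 with both agents. All combination libraries were above all others, and the gene rose 1.304-fold over DMSO (0.38 ± 0.08, edgeR adjusted p = 8.47e-05), a call that held under every scaling, filter and left-out library tried. Its rise over AKTi was smaller (0.204 ± 0.08, edgeR adjusted p = 0.0296) and was lost without AKTi A, AKTi B, DMSO B, EZH2i A, COMBO A or COMBO B (0.095 to 0.21) and with the looser filter (0.18). The TK1 to TK2 log2 ratio per length was 5.48 ± 0.02 with DMSO, 4.43 ± 0.04 with AKTi, 4.52 ± 0.10 with EZH2i and 2.12 ± 0.11 with both agents.

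HPRT1 (chrX:134460153-134520513, plus strand), which returns hypoxanthine and guanine to IMP and GMP, was at 60.1, 64.3 and 58.7 CPM with DMSO, 44.1, 38.6 and 38.2 with AKTi, 26.4, 28.7 and 27.8 with EZH2i and 12.6, 8.24 and 12.6 with both agents. It fell 5.46-fold in the combination (-2.45 ± 0.10, edgeR adjusted p = 6.81e-22), with COMBO B the lowest library. APRT, which does the same for adenine and was the third most abundant member per gene length in DMSO, was at 295 to 308 CPM with DMSO, 287 to 289.7 with AKTi, 187 to 205 with EZH2i and 112 to 124 with both agents. It did not pass the test in AKTi (-0.06 ± 0.05) and fell 2.52-fold in the combination (-1.33 ± 0.06). DCK, which phosphorylates deoxycytidine and other deoxynucleosides, fell from 65.8 to 76.9 to 17.9 to 21.4 CPM (-1.86 ± 0.08), with AKTi (-0.89 ± 0.08) and EZH2i (-0.79 ± 0.08) not called different from each other. UCK2 was at 147, 141 and 153 CPM with DMSO, 111, 121 and 115 with AKTi, 42.9, 43.3 and 47.2 with EZH2i and 32.1, 32.5 and 35.6 with both agents, 4.42-fold lower in the combination (-2.14 ± 0.07). UCK1 was at 34.5, 39.02 and 34.9 CPM with DMSO, 34.5, 36.4 and 38.1 with AKTi, 33.8, 30.3 and 33.8 with EZH2i and 29.2, 32.3 and 24.7 with both agents, and its change of -0.33 ± 0.09 (edgeR adjusted p = 0.00148) was lost when scaled by library size (-0.13) or upper quartile (-0.14). Both uridine kinase genes, like DCK, overlap another expressed gene (UCK1 with POMT1 and UCK2 with TMCO1 on the opposite strand, DCK with MOB1B on the same strand).

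The routes can be set side by side by the median of their members, as a description with no test. In AKTi the median log2 fold change was -0.31 over the 12 de novo genes and -0.35 over the 7 salvage genes, with -0.87 over the 6 deoxynucleotide genes. In EZH2i the de novo median was -1.12 and the salvage median -0.79, with -0.90 for deoxynucleotide synthesis. In the combination the order of the medians turned, with -1.38 for de novo and -1.86 for salvage. Deoxynucleotide synthesis was at -1.84 and the 6 shared genes at -1.23. The salvage median there was the value of DCK, and the ranges overlapped. Salvage genes ran from -2.97 (TK1) to 0.38 (TK2) and de novo genes from -2.17 to -0.79. Per library, de novo minus salvage was -0.037 to 0.085 with DMSO, -0.034 to 0.053 with AKTi, -0.45 to -0.27 with EZH2i and 0.42 to 0.58 with both agents. These ranges show the spread between libraries, not between genes. The gap in the combination depended on TK1: without it, the difference of medians was 0.22 in place of 0.48. The S-phase list had medians of -0.76, -1.41 and -2.81 in the 3 arms, with 29, 30 and 30 of its 30 genes lower. Of all genes tested, 21.9%, 31.5% and 35.2% were lower in these arms.

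**Figure D4:**
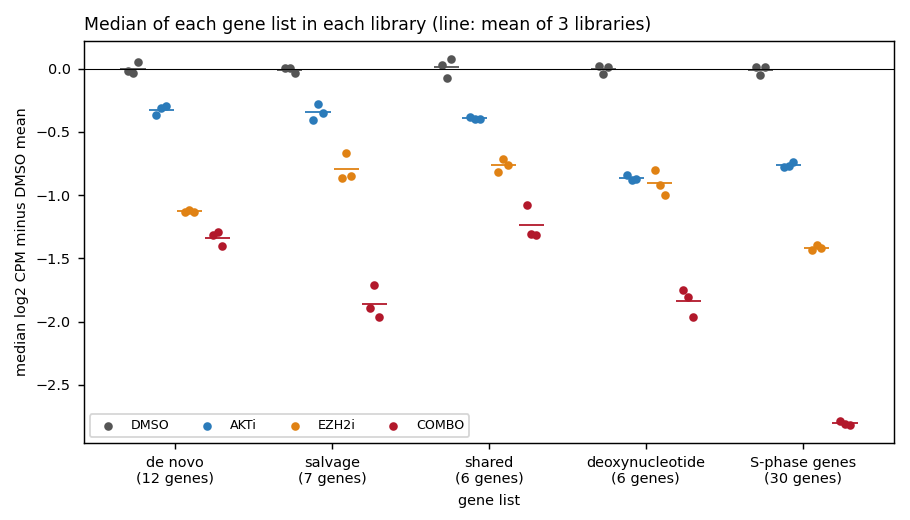
Each point is a library and gives the median, over the genes of a list, of log2 CPM minus the DMSO mean; short lines are means of 3 libraries and colors are arms. The de novo points of EZH2i lie below its salvage points, at -1.14 to -1.11 against -0.87 to -0.66, and the order is the opposite in the combination, at -1.40 to -1.29 against -1.97 to -1.71.

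Set directly against each other, the single-agent arms differed most at the de novo genes. EZH2i cells had received tazemetostat for 6 days before the last 24 hours, while AKTi cells received ipatasertib only in those hours. Agent and exposure time therefore cannot be told apart in this comparison. Of the 31 genes, 23 were lower in EZH2i than in AKTi and 1 was higher, where 25.1% and 25.4% of all genes were. All 12 de novo genes were among those lower, with a median difference of -0.93, from -0.37 for UMPS to -1.27 for DHODH. In the S-phase list 29 of 30 genes were lower, with a median of -0.66. Of the 6 deoxynucleotide genes 3 were lower and 1 higher, with a median of -0.16. Those not called were TYMS and DUT there, and CMPK1, CTPS2, UCK1, TK1 and DCK elsewhere. Some calls depended on a library or a setting. ADSL was lost without AKTi C (-0.46). DTYMK was lost without AKTi A, EZH2i B or EZH2i C (-0.25 to -0.17), with DESeq2 (-0.23), with library-size or upper-quartile scaling (-0.15 and -0.17) and with at least 10 counts in every library (-0.198). TK2 was lost without AKTi B, AKTi C or EZH2i C (-0.23 to -0.19), with both scalings (-0.13 and -0.15) and with both filters (-0.21 with 1 count or more over all libraries and -0.18 with at least 10 in every library). RRM2 was lost by library size (-0.13). The largest difference was at UCK2 (-1.38 ± 0.06, edgeR adjusted p = 1.51e-19). With libraries scaled by size alone, 60.8% of the calls over all genes were in the higher direction in place of 50.3%, and 20 members were then lower.

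Adding an agent to the other lowered most members further. Against AKTi, the combination was lower at 29 genes and higher at 1 (TK2), where 32.1% of all genes were lower and 32.1% higher. CMPK1 was the gene not called, and ADSL was lost without AKTi C (-0.46) or COMBO C (-0.43). CTPS2 was lost by library size and upper quartile (-0.17 and -0.18) and UCK1 by library size (-0.199). Against EZH2i, it was lower at 22 and higher at 2 (IMPDH2 and TK2), where 25.7% and 21.1% were. Those not called were GART, ADSL, CAD and DHODH of the de novo route, with CMPK1, DCTD and UCK1. The CTPS2 call there (-0.22 ± 0.08) was lost without EZH2i A, EZH2i C, COMBO B or COMBO C (-0.22 to -0.17), by library size (-0.17) or upper quartile (-0.16) and with only the arms compared (-0.202). The combination was below both agents, each at an edgeR adjusted p under 0.05, at 22 of 31 genes against 19.7% of all genes tested, and above both at 1, TK2, against 15.5%. The 22 comprised 7 of 12 de novo, 5 of 7 salvage, 5 of 6 deoxynucleotide and 5 of 6 shared genes. Library-size scaling moved the calls over all genes from 5343 lower and 5344 higher to 4330 and 6544 for the combination against AKTi, and from 5249 and 5421 to 4193 and 6630 for EZH2i against DMSO.

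The interaction asks whether the change in the combination differs from the sum of the 2 single-agent changes on the log2 scale. It was below that sum at 11 genes and above it at 2, where 17.5% and 10.7% of all genes were. Of the 30 S-phase genes, 18 were below and 1 above, with a median of -0.51 and a lowest value of -3.38. The median of the 31 enzymes was -0.13. Among these enzymes RRM2 departed most, by -2.24 ± 0.12 (edgeR adjusted p = 8.93e-18), so it was 4.73-fold lower than the sum gives. TK1 (-1.11 ± 0.08), NME1 (-0.87 ± 0.11), TYMS (-0.81 ± 0.14) and HPRT1 (-0.71 ± 0.14) followed. APRT (-0.63 ± 0.08) and ATIC (-0.62 ± 0.08) were also below the sum, as were PAICS (-0.304 ± 0.08), CTPS1 (-0.299 ± 0.10), CTPS2 (-0.31 ± 0.12) and IMPDH1 (-0.25 ± 0.09). The CTPS1 call was lost without DMSO B, AKTi C, EZH2i B, EZH2i C or COMBO A (-0.29 to -0.23). CTPS2 was lost without DMSO B, AKTi B, AKTi C, EZH2i A, EZH2i C, COMBO B or COMBO C (-0.31 to -0.22), with DESeq2 (-0.304) and with both filters (-0.33 and -0.28). IMPDH1 was lost without DMSO A, DMSO B, AKTi B, AKTi C, EZH2i A, EZH2i C or COMBO C (-0.25 to -0.17) and with the stricter of those filters (-0.22). Above the sum were GART (0.32 ± 0.09, edgeR adjusted p = 0.00407) and IMPDH2 (0.22 ± 0.07, edgeR adjusted p = 0.0209), the latter lost without AKTi A (0.16), EZH2i A (0.18), COMBO A (0.20) or COMBO B (0.20) and with the looser filter of 1 count or more (0.197). By route, 3 de novo genes were below and 2 above, and 3 salvage, 2 deoxynucleotide and 3 shared genes were below.

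**Figure D5:**
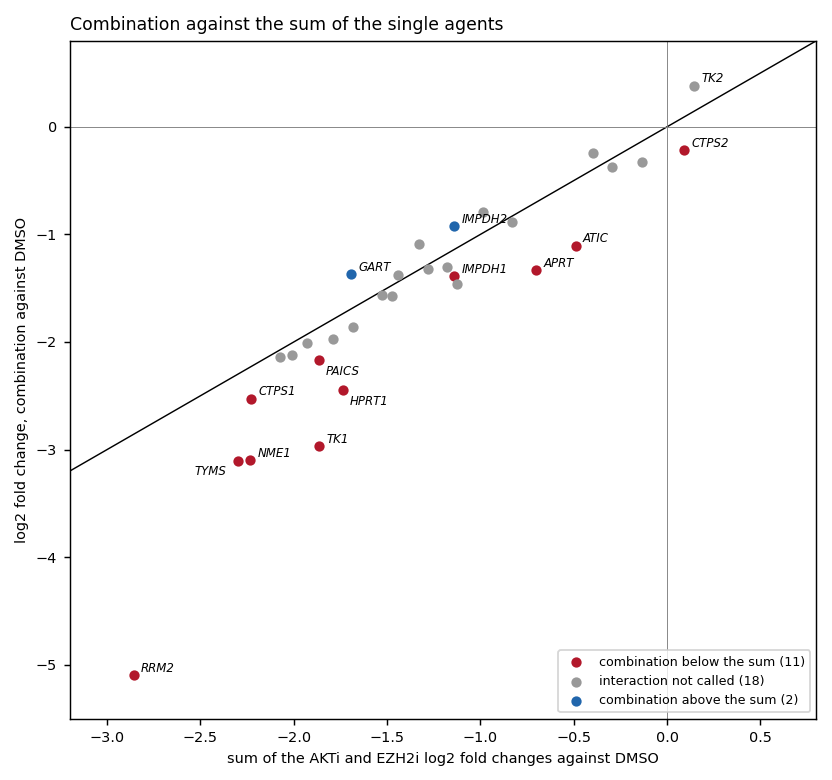
Each point is an enzyme, with the sum of its AKTi and EZH2i log2 fold changes against DMSO on the horizontal axis and its log2 fold change in the combination on the vertical axis; the line marks equality. The 11 genes called below the sum lie under the line, RRM2 farthest, and the 2 above it are GART and IMPDH2.

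Promoters were read for short motifs of factors known for proliferation genes, as a description of the sequence alone. RefSeq windows of 250 bases before to 50 after a transcript start (GRCh38.p14) were held for 29 members in 41 windows. The E-box CACGTG, its own reverse complement and the letters that MYC and related factors are known to read, was in 6 of 41 windows (14.6%), against 2548 of all 35116 windows (7.26%). The E2F-type letters TTTCCCGC or TTTGGCGC, on either strand, were in 5 of 41 (12.2%), against 797 (2.27%). The E-box occurred at ATIC, DCK, DHODH, NME1, PAICS and PPAT. A single occurrence lies in the windows of both PAICS and PPAT, the head-to-head pair, and was counted once for each gene. The E2F-type letters occurred at DCK, DUT, GART, PRPS2 and TYMS, and neither motif was found in the windows of RRM2 or TK1. Only these exact letters were searched, so other forms of such sites may be present. Whether any factor acts at these promoters was not tested. The following stretches show the motif of some of these genes in capitals, read on the strand of the gene, with positions counted from the RefSeq transcript start.

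PAICS (+41): ctgtatttgctgCACGTGgaaa
PPAT (-182): aacggagatttcCACGTGcagcaaatacag
NME1 (+35): agtgctgcgaacCACGTGggtcccgggc
ATIC (-46): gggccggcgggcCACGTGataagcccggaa
DHODH (-159): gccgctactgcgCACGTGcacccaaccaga
DCK (-116): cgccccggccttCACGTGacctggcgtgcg
TYMS (-39): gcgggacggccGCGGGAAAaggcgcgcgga
DUT (-42): gggcggggctgGCGGGAAAtttcggttttg
PRPS2 (-12): agccgccgcgcTTTCCCGCtcccgcagcag

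Genes with these letters were not uniform in response: in the combination NME1 changed by -3.099 and ATIC by -1.11 on the log2 scale, and TYMS by -3.11 and PRPS2 by -0.89.

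Other enzymes of the pathways moved less than the 31. Of 24 further purine and pyrimidine enzymes, all 24 passed the filter, and 6 were lower and 3 higher in AKTi, 16 and 3 in EZH2i, and 15 and 3 in the combination. The share lower in AKTi was close to the 21.9% of all genes tested, and the backgrounds in EZH2i and the combination were 31.5% and 35.2% lower and 32.6% and 38.0% higher. Their median log2 fold change in the combination was -0.52. ADK, the adenosine kinase of purine salvage, changed by -1.94 ± 0.07. RRM2B, the ribonucleotide reductase subunit that serves quiescent cells, rose slightly in the combination (0.25 ± 0.06, edgeR adjusted p = 0.000437). ADSS1 rose (1.76 ± 0.21) while ADSS2, the other adenylosuccinate synthase of AMP synthesis, fell (-0.85 ± 0.07). ADSS1 remained the minor gene, from 1.97 to 2.56 CPM with DMSO to 6.65 to 8.11 with both agents. ADSS2 was at 71.8 to 74.6 CPM with DMSO and 40.05 to 42.1 with both agents. NME2, the neighbor of NME1, fell 2.06-fold in the combination (-1.04 ± 0.31), against 8.57-fold for NME1. NME2 was low, at 2.54 to 4.06 CPM with DMSO and 0.785 to 2.48 with both agents. How reads shared by NME1, NME2 and the read-through gene were counted is not given, so this contrast is uncertain.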

How the data were processed

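PolyA RNA-seq of C4.2B cells in 4 arms with 3 libraries each was used. The authors used STAR for alignment to hg38, HTSeq for gene counting and DESeq2 for normalization. Versions, annotation and strand setting are not given in the sources used here, and sequencing was done at a core facility or Novogene without libraries being assigned to either, so no batch term was fitted. The deposited values used were raw counts for 58735 genes with a gene length per gene. The deposited DESeq2-normalized values were not used.

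Counts were analysed in R 4.3.3 with edgeR 4.0.16, using filterByExpr with a count minimum of 10 and a total minimum of 15, TMM scaling, and the quasi-likelihood test with 1 mean per arm over all 12 libraries. P-values were adjusted by Benjamini-Hochberg over 16646 genes, with a threshold of 0.05. SE is the log2 fold change divided by the square root of F. Levels are TMM-scaled CPM, and RPKM divides these by the deposited gene length. Isozyme ratios were compared by exact permutation in Python 3.11.15. Motifs were searched in RefSeq promoter windows, which were not held for ADSL and IMPDH2. Steps were tested on simulated data.

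The members, gene lists and tests were chosen with earlier results of these data known. Values per library are given for the member with the largest fold in each role list, for both genes of 5 pairs that act at the same step and for members called against the main direction, with TYMS and PPAT added after their values were seen. From the wider lists, the 3 largest rises and 3 largest falls in the combination are named, and ADK, RRM2B, ADSS1, ADSS2, NME2 and others were added after their values were seen. ADSS1 and ADSS2 were matched by Ensembl ID.

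The replicate letters are shared between arms, so deviations from arm means were correlated over genes: 0 of 18 same-letter pairs exceeded 0.1, and the letters were not taken as pairs. Alternatives tried were the DESeq2 1.42.0 test, library-size or upper-quartile scaling, a looser filter (1 count or more over all libraries) and a stricter one (10 counts or more in every library), only the arms compared, a replicate block, each library left out in turn, and other definitions of the routes.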

Additional observations from a re-analysis of the deposited data

Results flagged for a closer look

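At 3 members the change with AKTi had opposite signs without and with tazemetostat, and the interaction test called the difference. The share of all genes tested that did so was not counted, so whether this number is unusual is not known. Whatever the signs, the interaction was called lower at 17.5% of them and higher at 10.7%. ATIC was 0.15 (log2) in AKTi against DMSO and -0.47 in the combination against EZH2i, a difference of -0.62 ± 0.08 (edgeR adjusted p = 4.41e-08). CTPS2 was 0.09 and -0.22, a difference of -0.31 ± 0.12 (edgeR adjusted p = 0.0407), and this call was lost with DESeq2, with both filters and without each of 7 libraries in turn. The CTPS2 value of -0.22 was not called by library size, by upper quartile, with only the arms compared or without each of 4 libraries in turn. IMPDH2 was -0.06 and 0.16, a difference of 0.22 ± 0.07 (edgeR adjusted p = 0.0209), a call lost with the looser filter and without each of 4 libraries in turn. The AKTi values of CTPS2 and IMPDH2 did not pass the test by themselves, so their signs are uncertain. That of IMPDH2 was positive by library size, at 0.00058.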

How the results depend on the processing

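Counts of members called lower stayed within 1.5 times of their values under every alternative, at 19 to 21 in AKTi, 27 to 28 in EZH2i and 27 to 30 in the combination against DMSO, and 8 to 11 for the interaction. Counts of members called higher are small and moved. In AKTi against DMSO (1) the count was 3 with library-size or upper-quartile scaling, 2 with only the arms compared, 0 under the looser filter of 1 count or more, and 0 to 2 with a library left out. Under the looser filter it was 0 for the combination against AKTi (1), 1 for the combination against EZH2i (2) and 1 for the interaction (2). Leaving out a library gave 0 to 1, 1 to 2 and 1 to 3 for these, and 0 to 1 for EZH2i against AKTi (1). For causes, fewer libraries and a larger number of tests enter by construction, and that of the scalings was not tested.

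De novo minus salvage in AKTi (0.03) was -0.11 without TK1 and -0.00909 to 0.053 with a library left out. In the combination (0.48) it was 0.22 without TK1 and 0.40 to 0.57 with a library left out. Without TK1 the salvage median minus that of all genes was -0.21 in place of -0.35 in AKTi and -1.66 in place of -1.92 in the combination. The de novo median minus that of all genes was -1.15 in EZH2i, -1.07 with at least 10 counts in every library and -1.20 with CTPS1, CTPS2 and TYMS added. In the combination it was -1.44, with -1.55 under the looser filter, -1.32 with at least 10 counts in every library and -1.49 to -1.40 with a library left out. The salvage median there was -2.03 and -1.80 under these filters.

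Members whose estimates changed sign were not called under any alternative. IMPDH2 in AKTi was 0.00058 by library size. DHODH in AKTi was -0.034 to 0.13 with a library left out. UCK1 was -0.049 to 0.045 in AKTi with a library left out and 0.00034 in EZH2i by library size. CTPS2 in EZH2i was -0.0042 with DESeq2, -0.00093 under the looser filter, and -0.10 to 0.065 with a library left out. TK2 in EZH2i was 0.11 by library size, 0.087 by upper quartile and 0.0021 with at least 10 counts in every library.

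With the replicate letter as a block, 30 members were lower and 1 higher in the combination, as without it, and 12146 genes were called in place of 12186, and no count of members called changed in any of the 7 comparisons. Same-letter correlations were -0.06 to 0.07, and 4 of 12 libraries correlated best with their own letter. Depth limits ADSL most, at 57 to 148 counts, then RRM2 in the combination, where counts start at 87.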

Other observations

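Genes that break nucleotides down, clean the pools or carry nucleosides across membranes moved in both directions. Of 24 breakdown and pool-cleaning genes 18 were expressed enough to test, with 10 lower and 5 higher in the combination against DMSO and a median log2 fold change of -0.36, where 35.2% of all genes tested were lower and 38.0% higher. AMPD3 and XDH, at most 0.139 and 0.434 CPM in DMSO and AKTi, passed the filter through the arms with tazemetostat. For these genes only a rise over DMSO could be seen. Of 7 transporters 4 were tested, with 2 lower and 2 higher. The largest fall was at PNP, the phosphorylase that releases hypoxanthine and guanine from their nucleosides, at 113, 114 and 106 CPM with DMSO, 56.4, 58.2 and 58.8 with AKTi, 32.1, 31.8 and 29.4 with EZH2i and 7.705, 9.801 and 7.37 with both agents. It was 13.3-fold lower in the combination (-3.74 ± 0.09, edgeR adjusted p = 8.15e-30), with no overlap between arms. SLC29A1, an equilibrative nucleoside transporter, fell from 91.4 to 101 to 14.3 to 15.8 CPM (-2.68 ± 0.08). DCTPP1, which hydrolyzes dCTP and modified relatives, fell from 183 to 212 to 34.9 to 41.01 CPM (-2.37 ± 0.07).

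The 3 largest rises were at genes of low level in DMSO. SLC29A4, a membrane transporter of the same family, was at 2.42, 1.48 and 1.34 CPM with DMSO, 2.53, 3.22 and 3.198 with AKTi, 11.5, 7.36 and 9.56 with EZH2i and 8.47, 7.73 and 6.83 with both agents (2.16 ± 0.22 in the combination). UPP1, the uridine phosphorylase, was at 0.606, 0.5901 and 0.767 CPM with DMSO, 1.09, 1.05 and 0.626 with AKTi, 1.27, 1.64 and 1.61 with EZH2i and 2.59, 4.32 and 2.36 with both agents (2.203 ± 0.36). AMPD3, an AMP deaminase, was at 0.074 to 0.135 CPM in DMSO and 0.404 to 0.963 in the combination. These are too few reads in DMSO for a fold, so its place among the largest rises is uncertain. The other rises included TYMP, the thymidine phosphorylase, whose gene overlaps SCO2 so that its reads are uncertain, from 12.2 to 13.8 to 31.8 to 37.4 CPM (1.43 ± 0.11), and SLC29A3, an equilibrative nucleoside transporter, from 8.92 to 9.9 to 19.3 to 21 CPM (1.13 ± 0.12), both chosen for mention after their values were seen.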
